A study of Mus musculus with 18 samples.

Results

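The messenger RNAs of the respiratory chain were followed in the livers of 18 mice that had or lacked lysosomal acid lipase. Genes were taken by symbol, as the Nduf, Sdh, Uqcr, Cox4 to Cox8 and Atp5 families of the nuclear genome and the protein-coding mt- genes of mitochondrial DNA. Of 126 rows so named among the 35441 genes listed, 106 had more than 100 reads summed over the 18 mice, 93 of them nuclear and 13 mt-encoded, and these stand among 14533 genes tested. The nuclear rows held 37 subunits of complex I, 4 of complex II, 8 of complex III, 16 of complex IV and 17 of complex V, together with 8 Ndufaf factors, which build complex I but are no part of it, and 3 pseudogene rows (Atp5l-ps1, Cox7c-ps1 and Ndufb4c). Of the 20 rows at or under 100 reads, the heart and muscle isoforms Cox6a2 and Cox8b had 79 and 86 reads over all mice, and the isoforms Cox7b2 and Cox8c had 0.

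Complexes I and II pass electrons from NADH and succinate to ubiquinone, complex III passes them to cytochrome c, and complex IV hands them to oxygen. Complexes I, III and IV pump protons across the inner mitochondrial membrane, and complex V, the ATP synthase, uses their return to make ATP. Hepatocytes hold many mitochondria, and every complex except II is built from subunits of both genomes, with mitochondrial mRNAs cut from long transcripts of each strand of the circular DNA.

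Each group held 3 mice. WT mice, Lipa-/- mice and rAAV8-treated Lipa-/- mice were taken 12- and 34-weeks post-injection, which the sample labels give as 3 and 8 months. The Lipa-/- mice lacked exon 4 of Lipa in every tissue, and WT and untreated Lipa-/- mice carried the label of no treatment. The line had been backcrossed on the C57/BL6N background. Treated mice were male Lipa-/- animals injected in the tail vein with rAAV8.hAAT.LIPA, an adeno-associated vector that carries human LIPA under the hepatocyte promoter hAAT, whose activity in other liver cells was not examined here. Most untreated Lipa-/- mice reached a predefined endpoint before 34 weeks, so livers of this group labelled with the late time may come from younger animals than their WT counterparts. The 34-week mice carried the study code 22-106 and the 12-week mice 22-132, except Lipa-/- mouse 5, which carried 23-004. Time and study code cannot be told apart.

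Between 17527824 and 25833059 reads were assigned to genes per mouse. Levels are given as CPM, read counts scaled to library size with trimmed mean of M-values (TMM) factors, differences as log2 fold changes ± standard error (SE), and a gene is said to have passed at an adjusted p under 0.05 in edgeR's quasi-likelihood test over all 14533 genes. Murine Lipa stood at 202 to 267 CPM in 12-week and 283 to 323 CPM in 34-week WT mice, at 16.7 to 33.4 and 18.2 to 19.7 CPM in Lipa-/- mice, and at 31.0 to 37.0 and 29.1 to 31.2 CPM in treated mice. Human LIPA (hLIPA) stood at 907 to 2630 CPM in treated mice at 12 weeks and 523 to 2750 CPM at 34 weeks, at 0 CPM in untreated Lipa-/- mice, and at most at 0.906 CPM in a WT mouse.

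The tissue markers moved with the groups, and their part in the results was not tested. Summed hepatocyte markers lay at 70700 to 87600 CPM in WT and 45100 to 63100 CPM in Lipa-/- mice at 12 weeks, and at 66000 to 85100 and 28000 to 54000 CPM at 34 weeks. Of 9 hepatocyte markers tested, 4 were lower in Lipa-/- mice at 12 weeks and 6 at 34 weeks, with median log2 fold changes of -0.78 and -1.10. The shares of all genes lower were 16.3% and 23.5%. Summed macrophage markers lay at 176 to 462 CPM in 12-week WT, 5120 to 9580 CPM in Lipa-/- and 1300 to 3120 CPM in treated mice, and at 317 to 662, 4690 to 7340 and 490 to 1140 CPM at 34 weeks. Of 12 macrophage markers, 11 were higher in Lipa-/- mice at 12 weeks, and 9 were higher and 1 lower at 34 weeks. The shares of all genes higher were 22.9% and 23.8%. In bulk liver RNA, fewer hepatocytes and less RNA of a gene per hepatocyte cannot be told apart.

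Most nuclear members were lower in Lipa-/- than WT livers at 34 weeks, whereas at 12 weeks the count lower was near that of all genes. At 12 weeks, 17 of 93 nuclear members fell (18.3%) and 1 rose (1.08%), beside 16.3% of all genes lower and 22.9% higher, with a median log2 fold change of -0.40 against 0.02 over all genes tested. At 34 weeks, 75 of 93 fell and 3 rose, with a median of -1.18 against -0.03, beside 23.5% of all genes lower and 23.8% higher, so that 80.6% of the members were lower. Of the 75, 61 fell by more than 1 on the log2 scale, beside 15.7% of all genes. The groups did not overlap for 44 nuclear members at 12 weeks and 83 at 34 weeks, where 52.7% and 60.3% of all genes did not overlap. By scaling to the total count instead, the median of all genes moved to 0.49 and 0.60, the nuclear median turned to 0.08 at 12 weeks and stayed at -0.50 at 34 weeks, and the counts became 5 lower and 4 higher, and 27 lower and 4 higher. Relative to the median of all genes, the nuclear median was then -0.41 and -1.10, close to the -0.42 and -1.15 under TMM scaling. Without WT mouse 2 or Lipa-/- mouse 5, 11 nuclear members passed at 12 weeks, and without WT mouse 1 or Lipa-/- mouse 4, 46 and 51 passed at 34 weeks. The deposited TPM values gave 1 lower and 6 higher at 12 weeks, and 20 lower and 4 higher at 34 weeks. The shares of all genes in this paragraph are those under TMM scaling and are not shares for the total count or TPM counts.

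**Figure D1:**
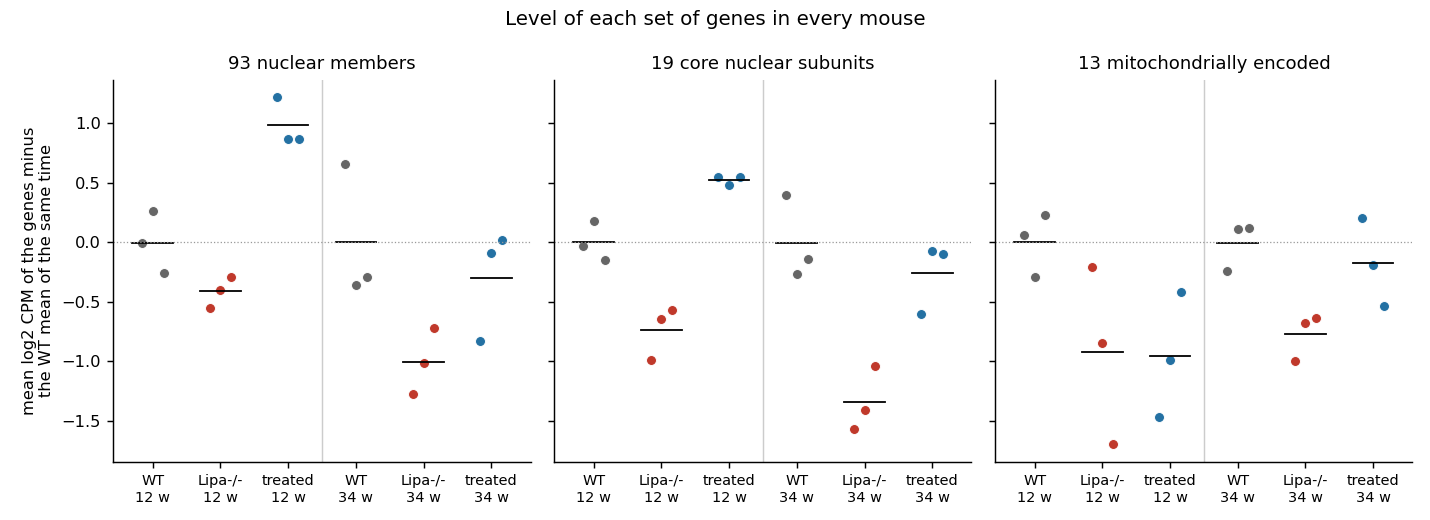
Mean log2 CPM of 93 nuclear members, 19 core nuclear subunits and 13 mt-encoded members in every mouse, minus the mean of the WT mice of the same time; points are mice and bars are means of 3. At 34 weeks the Lipa-/- mice sit between -1.57 and -1.04 for the core subunits, under every WT mouse, and the treated mice at 12 weeks sit between 0.87 and 1.22 for the nuclear members and between -1.47 and -0.42 for the mt-encoded members.

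Catalytic and central subunits were counted apart. A core list of 19 nuclear subunits held those that carry the redox centres, the main catalytic chains or the central structure of complexes I, II, III and V. For complex IV, whose catalytic subunit is mt-encoded, it held Cox4i1, Cox5a and Cox5b. The list had 10 members lower at 12 weeks and 19 lower at 34 weeks, with medians of -0.82 and -1.33, beside the 16.3% and 23.5% of all genes lower. The mean level of the core list, set against the WT mean, was -0.99, -0.65 and -0.57 in the 12-week Lipa-/- mice and -0.15 to 0.18 in the WT mice. The 34-week Lipa-/- mice gave -1.57, -1.41 and -1.04, against -0.27 to 0.40, so that no Lipa-/- mouse reached the range of its WT group at either time.

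**Figure D2:**
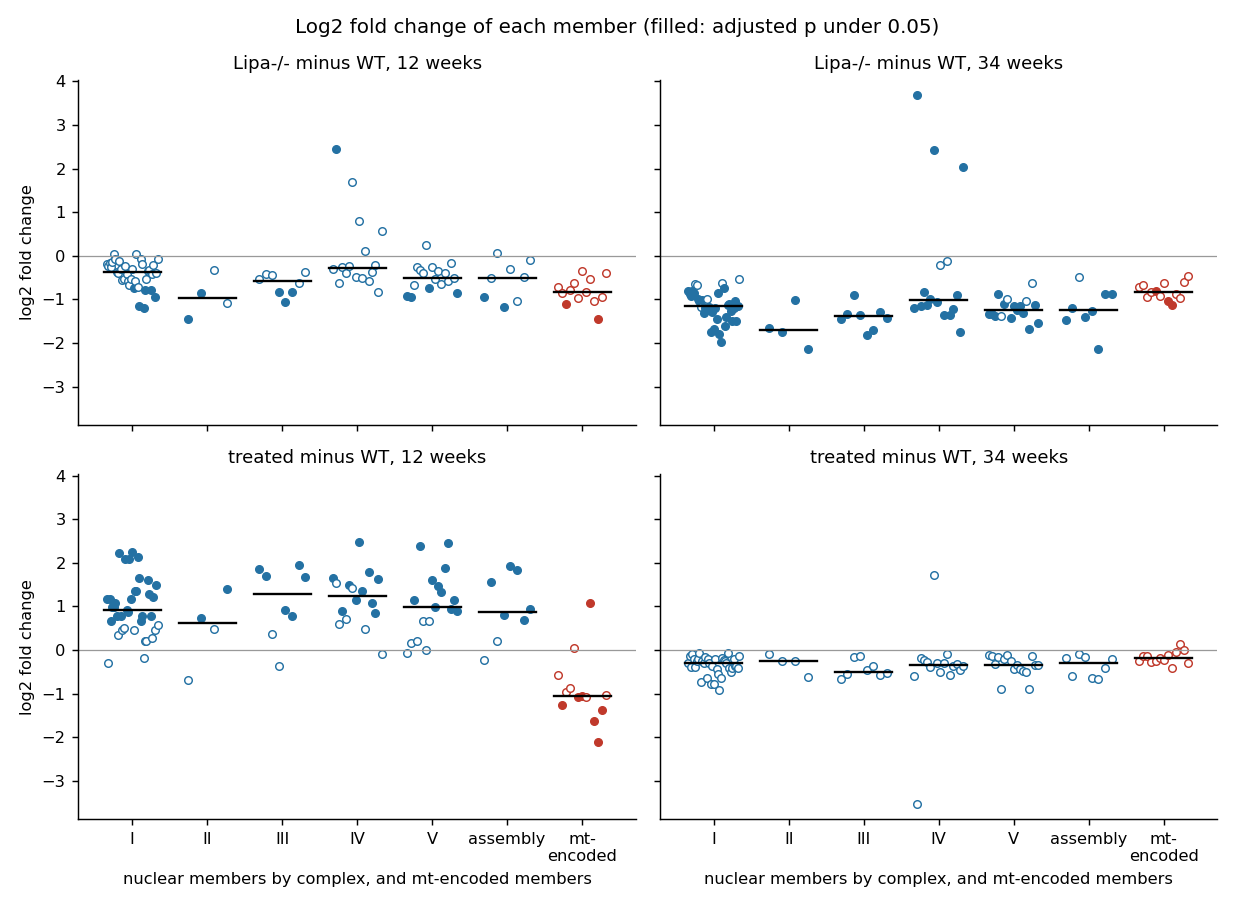
Log2 fold change of each member by complex in Lipa-/- against WT mice (top) and treated against WT mice (bottom), at 12 weeks (left) and 34 weeks (right), each point a gene, filled where the adjusted p was under 0.05, with bars for medians and without the pseudogene rows. Nuclear complexes are mostly under 0 in the top right panel, where 75 nuclear members were lower under TMM scaling and 27 under total count scaling, and no point is filled in the bottom right panel, whose lowest point is Cox4i2 with 0 to 3 reads a mouse.

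Complex II, which is wholly nuclear and is also the succinate dehydrogenase of the citric acid cycle, had the lowest median. It stood at -0.97 at 12 weeks, with 2 of 4 members lower, and at -1.70 at 34 weeks, with 4 of 4 lower. The shares of all genes lower were 16.3% and 23.5%. Sdha, the flavoprotein that oxidises succinate (GRCm39, chromosome 13, 74469359 to 74498436, minus strand), stood at 377, 308.5 and 536.2 CPM in 12-week WT mice and at 130.9, 181 and 132.2 CPM in Lipa-/- mice. At 34 weeks it stood at 315.2, 472.8 and 558.9 CPM in WT and at 132.6, 127 and 166.1 CPM in Lipa-/- mice. Every Lipa-/- mouse was under every WT mouse, and the log2 fold changes were -1.46 ± 0.27 (edgeR adjusted p = 0.000382) and -1.66 ± 0.27 (edgeR adjusted p = 8.74e-05). Under total count scaling they were -1.01 and -1.07 and passed, with edgeR adjusted p of 0.0131 and 0.00765, and in the TPM values they were -0.86 and -0.88 and did not (limma adjusted p = 0.0859 and 0.0569). Sdhb, the iron-sulfur subunit, fell by 0.86 at 12 weeks and by 1.74 at 34 weeks (edgeR adjusted p = 0.0121 and 3.76e-05). Of the membrane anchors, Sdhc gave -0.32 at 12 weeks, which did not pass (edgeR adjusted p = 0.275), and fell by 1.02 at 34 weeks (edgeR adjusted p = 0.00117). Sdhd, the other anchor, gave -1.09 at 12 weeks (edgeR adjusted p = 0.0607). Its 34-week range was 54.8 to 78.88 CPM in Lipa-/- and 172.9 to 480.6 CPM in WT mice, a log2 fold change of -2.14 ± 0.46 (edgeR adjusted p = 0.00103).

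In complex I, 6 of 37 nuclear subunits were lower at 12 weeks and 31 at 34 weeks, with medians of -0.37 and -1.16 and none higher. The 12-week share of 16.2% was that of all genes, 16.3%, and the 34-week share was 83.8%. Ndufs1, which carries iron-sulfur clusters of the NADH-oxidising arm (chromosome 1, 63182058 to 63216236, minus strand), stood at 106.4, 98.96 and 117.8 CPM in 12-week WT mice and at 36.02, 50.18 and 54.4 CPM in Lipa-/- mice. At 34 weeks it stood at 94.79, 110.2 and 128.7 CPM in WT and at 33.93, 30.57 and 44.99 CPM in Lipa-/- mice. The groups did not overlap at either time, with log2 fold changes of -1.20 ± 0.20 (edgeR adjusted p = 0.000154) and -1.61 ± 0.20 (edgeR adjusted p = 7.19e-06). Under total count scaling they were -0.74 and -1 and passed (edgeR adjusted p = 0.0174 and 0.00197). In the TPM values the 12-week change of Ndufs1 was -0.33 and did not pass (limma adjusted p = 0.308). Its 34-week change there was -0.63 and passed (limma adjusted p = 0.0355). Ndufv1, which binds NADH and FMN, fell by 0.95 and 1.49 (edgeR adjusted p = 0.00216 and 3.54e-05). Ndufs3, Ndufs7, Ndufs8 and Ndufv2, further core subunits, did not pass at 12 weeks, with values of -0.52, -0.42, -0.22 and -0.40. At 34 weeks these 4 fell by 1.12, 1.20, 1.03 and 1.16, with edgeR adjusted p of 0.000818, 0.00249, 0.017 and 0.0166. The accessory subunit Ndufb9 was among the 3 nuclear members furthest below WT at 34 weeks, at 56.48, 68.17 and 91.63 CPM against 501.7, 170.7 and 176.2 CPM. Its fold change was -1.97 ± 0.44 (edgeR adjusted p = 0.00152), and WT mouse 1 was far above the other WT mice.

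Among the Ndufaf factors, 2 of 8 were lower at 12 weeks, 25% beside 16.3% of all genes, and 7 of 8 at 34 weeks. Ndufaf4, which acts in the membrane arm of complex I, stood at 39.76, 40.96 and 28.95 CPM in 12-week WT mice and 20.26, 14.45 and 14.14 CPM in Lipa-/- mice. Those groups did not overlap (-1.17 ± 0.29, edgeR adjusted p = 0.00429), and at 34 weeks the fall was 1.39 (edgeR adjusted p = 0.000882). Ndufaf6 gave -1.03 at 12 weeks, which did not pass (edgeR adjusted p = 0.0704). At 34 weeks it stood at 3.784, 3.362 and 6.175 CPM in Lipa-/- mice against 34.98, 12.61 and 11.48 CPM in WT mice, and fell by 2.14 (edgeR adjusted p = 0.000955).

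Complex III had 3 of 8 nuclear members lower at 12 weeks and 8 of 8 at 34 weeks, with medians of -0.58 and -1.39. These counts stand beside 16.3% and 23.5% of all genes lower. Uqcrc2, a core protein of the matrix side, ranged from 65.56 to 97.44 CPM in 34-week Lipa-/- mice and from 202.3 to 394.9 CPM in WT mice. It fell by 1.07 at 12 weeks (edgeR adjusted p = 0.00695) and by 1.82 at 34 weeks (edgeR adjusted p = 8.22e-05). Uqcrc1, its partner, fell by 0.82 and 1.35 (edgeR adjusted p = 0.0101 and 0.000182), and Uqcrfs1, the Rieske iron-sulfur protein, by 0.82 and 1.70 (edgeR adjusted p = 0.0171 and 5.67e-05).

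In complex V, 4 of 17 members were lower at 12 weeks and 13 at 34 weeks, with medians of -0.52 and -1.24. These were 23.5% and 76.5% of its members, beside 16.3% and 23.5% of all genes. Atp5b, the catalytic beta chain (chromosome 10, 127919132 to 127926261), stood at 1147, 1301 and 1098 CPM in 12-week WT and at 396.4, 678.7 and 762 CPM in Lipa-/- mice. At 34 weeks it stood at 1150, 957.8 and 1088 CPM in WT and at 365, 362.8 and 548.6 CPM in Lipa-/- mice. These groups did not overlap, with falls of 0.95 and 1.32 (edgeR adjusted p = 0.00634 and 0.000396), but at 12 weeks total count scaling gave -0.47 and the TPM values 0.23, and neither passed (edgeR adjusted p = 0.11 and limma adjusted p = 0.392). At 34 weeks total count scaling gave -0.7 and passed (edgeR adjusted p = 0.0189), and the TPM values gave -0.21 and did not (limma adjusted p = 0.375). Atp5a1, the alpha chain, fell by 0.92 and 1.33 (edgeR adjusted p = 0.00411 and 0.000156). The membrane c-ring is encoded by 3 genes for an identical mature protein. Of these, Atp5g3 fell by 0.75 and 1.42 (edgeR adjusted p = 0.0409 and 0.000525), and Atp5g1 gave -0.39 at 12 weeks (edgeR adjusted p = 0.354) and fell by 1.10 at 34 weeks (edgeR adjusted p = 0.00861). Atp5g2, with 2779 reads, gave 0.24 and -0.99 and did not pass (edgeR adjusted p = 0.721 and 0.0955). Its row is uncertain, because the pseudogene Gm10175 matches it at 100% over 441 bases and held 54303 reads. With those reads added, Atp5g2 fell by 0.69 at 34 weeks (edgeR adjusted p = 0.0378).

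Complex IV, cytochrome c oxidase, was the complex with members on both sides. At 12 weeks 0 of its 16 nuclear members were lower and 1 was higher, and at 34 weeks 11 were lower and 3 higher, with medians of -0.28 and -1.02. Of all genes 16.3% were lower and 22.9% higher at 12 weeks, and 23.5% lower and 23.8% higher at 34 weeks. The share of its members higher was thus under that of all genes at both times. Cox4i1, the common form of subunit 4 (chromosome 8, 121391505 to 121400950), gave -0.31 at 12 weeks (edgeR adjusted p = 0.582). It stood at 284.6, 336.6 and 386.6 CPM in 34-week Lipa-/- mice and 1389, 437.6 and 489.1 CPM in WT mice, a fall of 1.20 ± 0.41 (edgeR adjusted p = 0.0222). Cox5a and Cox5b, the other complex IV members of the core list, gave -0.62 and -0.26 at 12 weeks, neither of which passed (edgeR adjusted p = 0.0735 and 0.453). At 34 weeks they fell by 1.15 and 0.84 (edgeR adjusted p = 0.00185 and 0.0137).

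The 3 nuclear members that rose were alternative isoforms of complex IV. Cox4i2 and Cox6b2 had 118 and 228 reads over all mice, mostly from Lipa-/- mice, and without those mice would have missed the read minimum. Ndufa4l2, with 967 reads, would not. The isoforms Cox6a2 and Cox8b, with 79 and 86 reads, missed it and were not tested. That low-read isoforms were among those that rose is thus partly set by the read minimum. Cox4i2, the form of subunit 4 known from lung and from cells short of oxygen, had 1, 3 and 0 reads in 12-week WT mice and 11, 5 and 15 reads in Lipa-/- mice. Its 34-week reads were 1, 3 and 0 reads in WT and 29, 19 and 22 reads in Lipa-/- mice. The groups did not overlap, and the log2 fold changes were 2.46 ± 0.88 (edgeR adjusted p = 0.0373) and 3.68 ± 0.85 (edgeR adjusted p = 0.0024), on very few reads. In the 34-week treated mice Cox4i2 had 0 reads in all 3, which allows up to 3 reads over the group, against 70 reads in Lipa-/- mice, so it was at least 18.9-fold lower. Ndufa4l2, the counterpart of Ndufa4 known to follow low oxygen, stood at 8.041, 3.014 and 5.881 CPM in 34-week Lipa-/- mice and 1.829, 0.9458 and 1.401 CPM in WT mice. It rose by 2.03 ± 0.44 (edgeR adjusted p = 0.00105), and was 2.40 lower in treated than in untreated Lipa-/- mice (edgeR adjusted p = 0.000372). Ndufa4 itself, a subunit of complex IV despite its name, fell by 1.74 at 34 weeks (edgeR adjusted p = 0.00229). Cox6b2, known from testis, rose by 2.43 at 34 weeks (edgeR adjusted p = 0.0284) from 0.1168 to 0.2359 CPM in WT mice to between 0.5797 and 1.23 CPM, while Cox6b1 fell by 0.98 (edgeR adjusted p = 0.0364). Levels under TPM and total count scaling kept these 3 higher at 34 weeks. At 34 weeks summed stellate cell and fibroblast markers were 1340 to 2590 CPM in Lipa-/- and 176 to 206 CPM in WT mice, and the part of other cells in these isoforms was not tested.

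**Figure D3:**
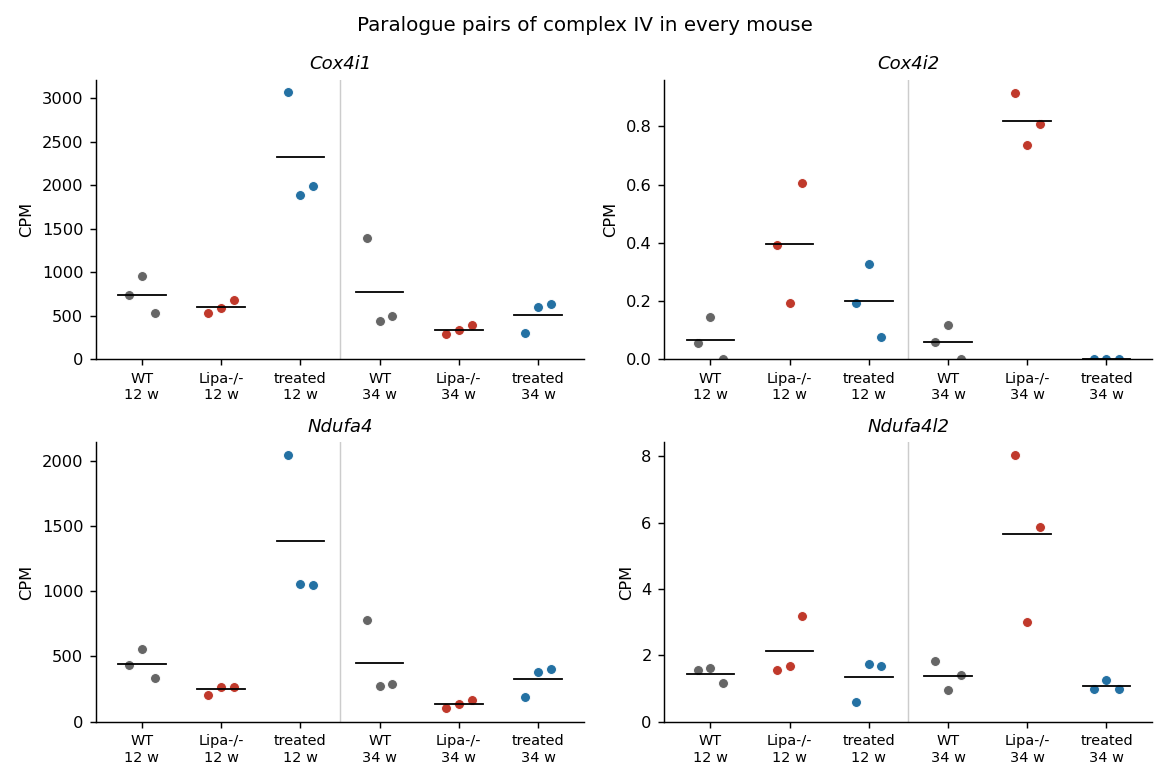
CPM of the paralogue pairs Cox4i1 and Cox4i2, and Ndufa4 and Ndufa4l2, in every mouse; points are mice and bars are means of 3, and each panel has its own linear axis. At 34 weeks Cox4i2 sits between 0.7343 and 0.9145 CPM in Lipa-/- mice and at 0 CPM in treated mice.

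Not every isoform with a muscle or tissue-restricted history moved with these. Cox7a1, the heart and muscle form of subunit 7a, gave 0.79 and -0.21 in Lipa-/- mice (edgeR adjusted p = 0.243 and 0.767). Cox7a2, the common form, gave -0.51 at 12 weeks (edgeR adjusted p = 0.262) and fell by 1.35 at 34 weeks (edgeR adjusted p = 0.00436). Cox7a2l, a related gene, gave 0.10 and -0.13 (edgeR adjusted p = 0.771 and 0.705), the latter the value nearest to 0 among the nuclear members at 34 weeks. Cox6a1, Cox7b and Cox8a did not pass at 12 weeks, with -0.40, -0.59 and -0.22, and fell by 1.13, 1.36 and 0.89 at 34 weeks (edgeR adjusted p = 0.00307, 0.0167 and 0.0069). The inhibitor of the ATP synthase, Atpif1, is no member by its symbol. It stood at 13.45 to 22.92 CPM in 12-week WT and 34.1 to 88.83 CPM in Lipa-/- mice, a rise of 1.72 ± 0.45 (edgeR adjusted p = 0.00641), and gave 0.95 at 34 weeks (edgeR adjusted p = 0.0914).

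The 13 mt-encoded genes lie on a circle of 16299 bases. The heavy strand gives 10 mRNAs here, counting the bicistronic pairs mt-Atp8/mt-Atp6 and mt-Nd4l/mt-Nd4 once each, and the light strand gives mt-Nd6. The genes of each pair share bases, which are shown because a read there belongs to both genes and was divided between them. In the lines that follow, taken from the GRCm39 genome, capitals mark the shared bases, 43 in the pair of complex V subunits and 7 in the pair of complex I subunits, with flanks in lower case.
mt-Atp8 and mt-Atp6, chrM:7915-7981, plus strand: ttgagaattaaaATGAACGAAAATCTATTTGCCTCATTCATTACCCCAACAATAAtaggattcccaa
mt-Nd4l and mt-Nd4, chrM:10155-10185, plus strand: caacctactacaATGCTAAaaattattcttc
Both runs open with the start codon of the downstream gene. A gene of mtDNA can also share reads with copies in the nuclear genome. The row Gm28438 matches mt-Nd3 at 99.7% over 345 bases and held 268194 reads against 147383 in mt-Nd3, and Gm29216 matches mt-Co1 at 99.8% over 483 bases and held 187764 against 5500004.

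mt-encoded mRNAs took 4.63% to 7.19% of reads in 12-week WT mice and 2.67% to 6.82% in Lipa-/- mice, and 4.58% to 7.85% and 5.68% to 5.73% at 34 weeks. In Lipa-/- against WT mice all 13 gave negative log2 fold changes at both times, with a median of -0.83 at each. Of them 2 passed at 12 weeks and 3 at 34 weeks, all lower, beside 16.3% and 23.5% of all genes lower. No mt-encoded gene passed under total count scaling, in the TPM values or with a trend of length and GC content removed. With that trend removed not all stayed negative, and mt-Nd6 gave 0.37 and 0.47. The mean over the 13, against the WT mean, was then 0.44, -0.3 and -1.2 in 12-week Lipa-/- mice. WT mice of that time gave -0.09, -0.46 and 0.54. The 34-week means were 0, -0.03 and 0.19 in Lipa-/- mice and -0.91, 0.38 and 0.52 in WT mice, so the groups overlapped. mt-Co1, the catalytic subunit of complex IV (mitochondrial genome, 5328 to 6872, plus strand), stood at 20920, 15140 and 20410 CPM in 12-week WT and 12600, 8378 and 5404 CPM in Lipa-/- mice, a fall of 1.10 ± 0.39 (edgeR adjusted p = 0.0344). mt-Nd4l, a subunit of complex I, fell by 1.46 ± 0.54 (edgeR adjusted p = 0.0423), although Lipa-/- mouse 5 at 306.6 CPM lay above WT mouse 2 at 247.9 CPM. mt-Co2 gave -0.78 and -0.83 (edgeR adjusted p = 0.0846 and 0.0567). At 34 weeks mt-Nd2 fell by 1.04, mt-Nd3 by 1.14 and mt-Co3 by 0.80, with edgeR adjusted p of 0.0474, 0.0333 and 0.0317. The other 9 heavy-strand genes at that time ranged from -0.97 to -0.59, and mt-Nd6 of the light strand gave -0.46 (edgeR adjusted p = 0.352).

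The 12-week Lipa-/- mice differed among themselves in mt-encoded levels. The mean over the 13 genes, against the WT mean, was -0.21 in mouse 5, -0.85 in mouse 8 and -1.70 in mouse 9, and -0.29 to 0.23 in WT mice. Mouse 5 is the mouse of study code 23-004, and without it 8 mt-encoded genes passed in place of 2. Without WT mouse 1, WT mouse 3, Lipa-/- mouse 8 or Lipa-/- mouse 9, 0 passed. At 34 weeks the values were -1.0, -0.68 and -0.64, against -0.24 to 0.12 in WT mice. Without Lipa-/- mouse 4 or 5, 0 of the 3 calls were made.

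The ratio of mt-encoded to nuclear reads within a library does not depend on its scaling. Its log2 was 2.01, 1.45 and 2.37 in 12-week WT mice and 2.36, 1.58 and 0.72 in Lipa-/- mice, a difference of -0.39 with a pooled SD of 0.67. The 34-week values were 1.16, 2.52 and 2.45 in WT and 2.52, 2.51 and 2.22 in Lipa-/- mice, a difference of 0.38 with an SD of 0.55. Both differences were within the spread between mice, so an unequal loss of nuclear and mt-encoded reads was not detectable with 3 mice a group.

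Whether the difference of Lipa-/- from WT mice itself changed with time was tested as an interaction. In edgeR 0 of 106 members passed, with 6 nuclear and 0 mt-encoded members at an unadjusted p under 0.05, and 0 passed in DESeq2 or limma-voom, beside 0.0619% of all genes. The median interaction was -0.71 for nuclear and 0.00 for mt-encoded members, and -0.14 for all genes. The larger count at 34 weeks is therefore not shown to be a larger difference for any member taken alone.

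rAAV8-treated Lipa-/- mice at 12 weeks stood on the other side of WT for nuclear subunits. Of 93 nuclear members 63 were higher than in WT and 0 lower, with a median of 0.98 against 0.06 over all genes, beside 19.4% of all genes higher and 17.5% lower. Of the 63, 42 were higher by more than 1 on the log2 scale, beside 13.6% of all genes, and 78 nuclear members did not overlap with WT, beside 52.5% of all genes. In the TPM values the counts were 30 higher and 4 lower, and under total count scaling 42 higher and 3 lower, while the shares of all genes are those under TMM scaling. Of the mt-encoded members, 6 were lower and 1 higher, with a median of -1.05. The calls rest on few mice: without treated mouse 10, 9 nuclear and 1 mt-encoded member passed, and without WT mouse 3, 19 and 0. Without WT mouse 1 or treated mouse 11, 2 and 1 mt-encoded members passed. Treated mouse 10 had the fewest reads of all mice, 17527824.

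The members furthest above WT were small subunits. Cox7a1 stood at 20.79, 15.43 and 8.357 CPM in 12-week treated and at 3.162, 3.302 and 1.518 CPM in WT mice, a rise of 2.48 ± 0.53 (edgeR adjusted p = 0.005). Atp5md, a small membrane subunit of the ATP synthase, stood at 1930, 676.7 and 638.2 CPM against 198.8, 252.1 and 144.1 CPM, a rise of 2.45 ± 0.59 (edgeR adjusted p = 0.0076). Atp5e, the epsilon chain of its stalk, rose by 2.38 ± 0.57 (edgeR adjusted p = 0.00773). In each of these the groups did not overlap, and in the latter pair mouse 10 lay well above mice 11 and 12.

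Of the 19 core subunits 8 were higher and 0 lower (42.1% higher, beside 19.4% of all genes), with a median of 0.48. A difference between core and other subunits was not tested. Sdha stood at 246.2, 256.7 and 257.3 CPM in treated mice, under every WT mouse of 12 weeks, at -0.68 ± 0.26 (edgeR adjusted p = 0.0507). Ndufs1, Uqcrc1, Atp5a1 and Atp5b gave -0.18, -0.37, -0.06 and 0.16 and did not pass (edgeR adjusted p = 0.476, 0.212, 0.839 and 0.62). Cox4i1 rose by 1.65, Ndufv2 by 1.48, Sdhd by 1.39 and Ndufs8 by 1.21, with edgeR adjusted p of 0.00865, 0.00899, 0.0242 and 0.0125.

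Over all 14533 genes, treated against WT mice at 12 weeks had a median log2 fold change of 1.25 in the 686 genes with an effective length under 500 bases, 0.80 from 500 to 1000 bases, 0.21 from 1000 to 2000 bases and -0.39 over 4000 bases. The nuclear members had medians of 1.33 for 53 genes, 1.07 for 24 genes and 0.48 for 14 genes in the shorter ranges. The difference between the medians of genes under the 25th and over the 75th percentile of length, set to 0 over the 12-week WT mice, was 0.98, 0.82 and 0.84 in treated mice, -0.41 to 0.42 in WT and -0.21 to 0.34 in Lipa-/- mice. An alternative added after seeing the data removed, in each library, the trend of all genes with length and GC content. Then 28 nuclear members were higher and 4 lower in treated mice, with a median of 0.27, beside 16.8% of all genes higher. The mean nuclear level was 0.33, 0.22 and 0.27 in the treated mice, still above the WT range of -0.03 to 0.05.

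**Figure D4:**
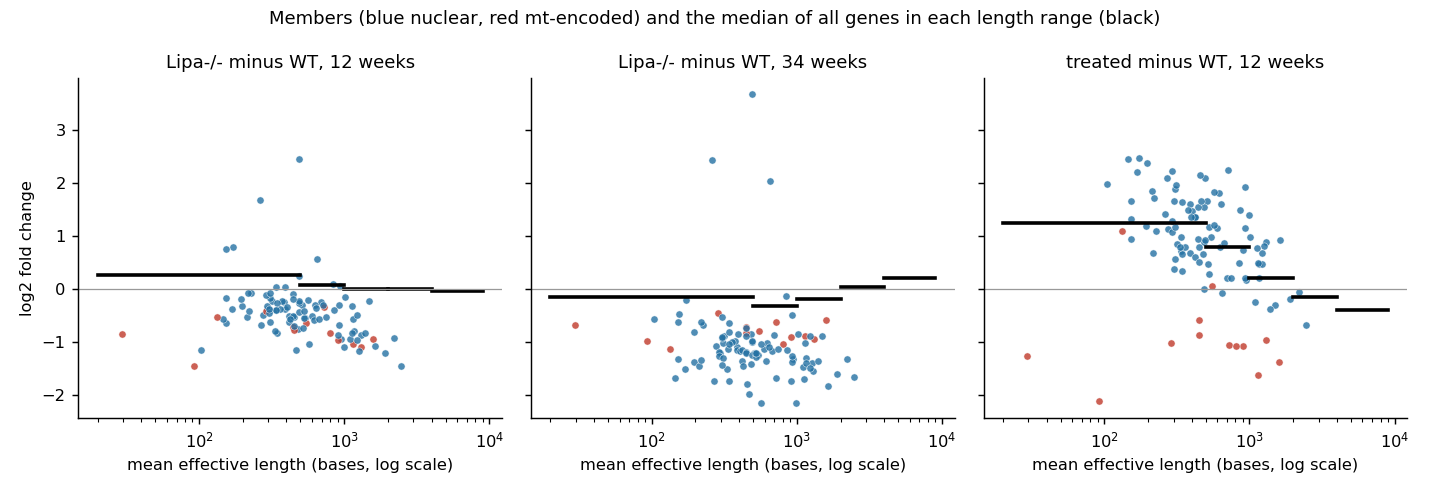
Log2 fold change of the 93 nuclear (blue) and 13 mt-encoded (red) members against mean effective length on a log axis, with black bars for the median of all genes tested in each length range. In treated against WT mice at 12 weeks the black bar is at 1.25 under 500 bases and the nuclear members there have a median of 1.33, whereas in Lipa-/- against WT mice at 34 weeks the bar is at -0.16 and the members at -1.10.

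The same ranges were read for Lipa-/- against WT mice. At 34 weeks all genes had medians of -0.16, -0.33 and -0.18 in the 3 ranges up to 2000 bases of effective length, and the nuclear members had -1.10, -1.20 and -1.40. At 12 weeks the medians were 0.27, 0.07 and 0 for all genes and -0.37, -0.47 and -0.82 for the members, so that longer members stood further below WT. Across the 93 nuclear members, which share their libraries, fold change and effective length gave r of -0.34 and rho of -0.37 at 12 weeks and -0.18 and -0.27 at 34 weeks, and over all genes r was -0.04 and 0.09. With the trend removed, 46 nuclear members were lower and 1 higher at 12 weeks, and 80 lower and 3 higher at 34 weeks, beside 19.4% and 25.8% of all genes lower. The mean nuclear level of the 12-week Lipa-/- mice was then -0.53, -0.51 and -0.53, and that of the 34-week mice -0.99, -0.92 and -0.63, each under every WT mouse of its time.

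**Figure D5:**
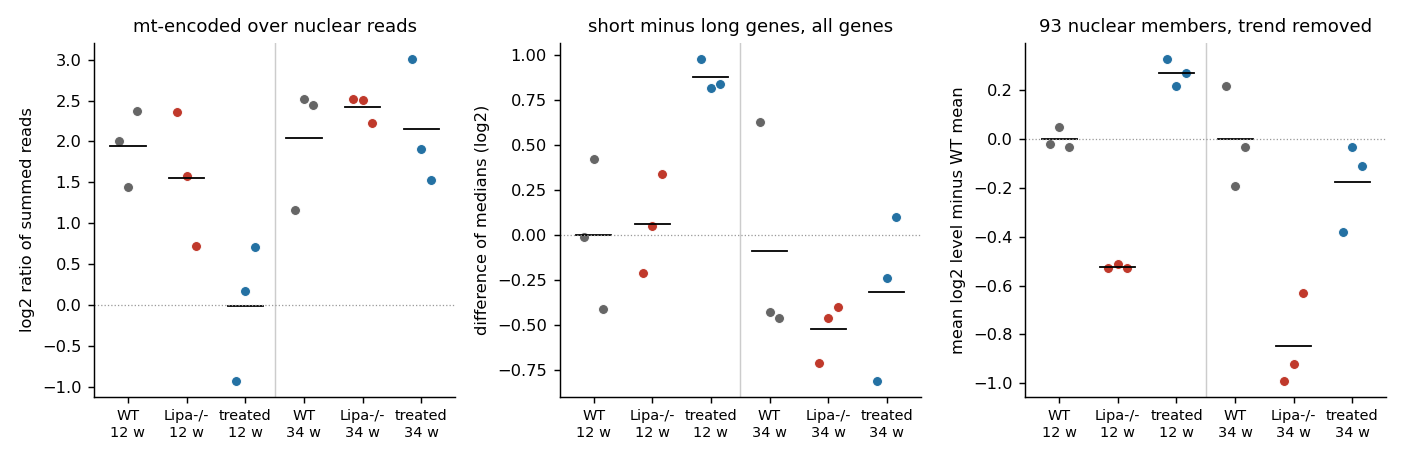
Per mouse, the log2 ratio of mt-encoded to nuclear reads (left), the median log2 level of short minus long genes over all genes (middle), and the mean log2 level of 93 nuclear members with the length and GC trend removed (right); points are mice and bars are means of 3. Treated mice at 12 weeks are lowest in the left panel, at -0.92 to 0.71, and highest in the middle panel, at 0.82 to 0.98, and in the right panel the 12-week Lipa-/- mice sit at -0.53 to -0.51.

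The mt-encoded mRNAs of 12-week treated mice moved against the nuclear ones. They took 1.53%, 2.77% and 3.38% of reads, and the nuclear members took 2.91%, 2.46% and 2.06%. The log2 ratio was -0.92, 0.17 and 0.71, under every WT value, and the difference of -1.96 from WT was larger than the pooled SD of 0.68. mt-Nd4l fell by 2.11, mt-Nd4 by 1.62, mt-Nd5 by 1.37, mt-Nd1 by 1.05 and mt-Cytb by 1.08, with edgeR adjusted p of 0.0105, 0.0177, 0.0321, 0.0367 and 0.0486. mt-Atp8 also fell, by 1.27 (edgeR adjusted p = 0.0285), while its partner mt-Atp6 gave -0.58 (edgeR adjusted p = 0.179). mt-Nd3, the shortest heavy-strand mRNA at 348 bases, stood at 803.4, 825.5 and 986 CPM in treated and 393.4, 490.7 and 343.1 CPM in WT mice, a rise of 1.09 ± 0.42 (edgeR adjusted p = 0.0493). With reads of its nuclear copy added the rise was 0.86 and did not pass (edgeR adjusted p = 0.0967).

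Across the 10 heavy-strand mRNAs, which share their promoter and their libraries, the log2 fold change of treated against WT mice at 12 weeks fell with coding length, with Pearson's r of -0.87 and Spearman's rho of -0.90. mt-Co3, of 784 bases, gave 0.05, the mt-Nd4l/mt-Nd4 mRNA, of 1668 bases, gave -1.87, and mt-Nd5, of 1824 bases, gave -1.37. In treated against WT mice at 34 weeks r was 0.93, over values from -0.41 to 0.04, and in Lipa-/- mice r was -0.70 at 12 weeks and 0.39 at 34 weeks. With the length and GC trend of all genes removed, 12 mt-encoded genes were lower and 0 higher in 12-week treated mice, with a median of -2.05, and the means of the 3 mice were -2.93, -1.80 and -1.30.

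At 34 weeks no member passed between treated and WT mice. In edgeR 0 of 93 nuclear and 0 of 13 mt-encoded members passed, with 1 and 0 at an unadjusted p under 0.05, and DESeq2 and limma-voom gave 0 as well. Over all genes 0.22% passed. The nuclear median was -0.32 and 92 of 93 values were negative, and the mt-encoded median was -0.19. The mean nuclear level was -0.83, -0.09 and 0.02 in treated mice 9, 11 and 12 and 0.66, -0.36 and -0.29 in WT mice 1, 2 and 3, so that the groups overlapped. In the same order, short minus long genes gave -0.81, -0.24 and 0.1, and 0.63, -0.43 and -0.46. Under 500 bases the median was -0.25 for all genes and -0.39 for nuclear members. With the trend removed the mean nuclear level was -0.38, -0.03 and -0.11, and 0.22, -0.19 and -0.03. The part of length in the negative values was not tested. Sdha stood at 503.2, 443.6 and 310.9 CPM in treated mice, and Ndufs1 at 93.49, 101.2 and 85.09 CPM, at -0.10 ± 0.26 and -0.25 ± 0.20 from WT (edgeR adjusted p = 0.992 and 0.965).

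Treated were then set against untreated Lipa-/- mice, which share the genotype and did not receive the vector. The vector was not the only difference. Lipa-/- mouse 5 of 12 weeks carried another study code, and the untreated livers labelled 34 weeks may come from younger animals. At 12 weeks 83 of 93 nuclear members were higher and 0 lower, with a median of 1.42 against -0.19 over all genes, beside 23.8% of all genes higher and 30.4% lower. With the length and GC trend removed it was 65 higher and 1 lower, with a median of 0.84, in the TPM values 33 higher and 8 lower, and under total count scaling 44 higher and 3 lower. At 34 weeks 43 were higher and 2 lower, with a median of 0.78 against 0.03, beside 19.6% higher and 21.4% lower, with 16 higher and 2 lower under total count scaling, 11 higher and 3 lower in the TPM values, and 67 higher and 2 lower with the trend removed. Without Lipa-/- mouse 4, 25 nuclear members passed at 34 weeks, and without treated mouse 11 or 12, 29 and 26. The shares of all genes given here are those under TMM scaling only, and none are set beside the counts of the other settings. These comparisons of treated with untreated mice share their Lipa-/- mice with those against WT.

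Members higher in 34-week treated than untreated Lipa-/- mice were counted by complex, and a difference between complexes was not tested. Of all genes 19.6% were higher and 21.4% lower. Complex II had 4 of 4 members higher, with a median of 1.50, complex I 19 of 37, complex III 4 of 8, complex V 8 of 17 and complex IV 5 of 16, with the 2 lower members being Cox4i2 and Ndufa4l2. Sdha, at 310.9 to 503.2 CPM against 127 to 166.1 CPM, was higher by 1.56 ± 0.27 (edgeR adjusted p = 0.000198), and Ndufs1 by 1.35 ± 0.20 (edgeR adjusted p = 4.9e-05). Of the core list 15 of 19 were higher and 0 lower. Those that did not pass were Ndufs8, Ndufv2, Cox4i1 and Cox5b, at 0.66, 0.74, 0.60 and 0.60 (edgeR adjusted p = 0.124, 0.12, 0.25 and 0.0733).

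Of the mt-encoded genes, 1 passed in treated against untreated Lipa-/- mice at 12 weeks. It was mt-Nd3, higher by 1.62 ± 0.42 (edgeR adjusted p = 0.00439), and the median of the 13 was -0.24. This direction depends on the scaling, since 8 were lower and 0 higher under total count scaling, 10 were lower in the TPM values and 9 with the length and GC trend removed. Without Lipa-/- mouse 9, 2 were lower and 1 higher, and without Lipa-/- mouse 5 or treated mouse 10 or 12, 2 passed. At 34 weeks 0 passed in edgeR, 1 at an unadjusted p under 0.05 and 1 in DESeq2, with a median of 0.59 and no negative value. The mt-Co1 range was 13080 to 23220 CPM in treated and 9256 to 9984 CPM in untreated mice, without overlap, at 0.80 ± 0.39 (edgeR adjusted p = 0.111). The log2 ratio of mt-encoded to nuclear reads differed by -1.57 at 12 weeks (SD 0.83) and by -0.27 at 34 weeks (SD 0.56).

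The change of the treated mice's distance from WT between the time points was tested too. It was lower at 34 weeks for 49 nuclear members and higher for 1 mt-encoded member, beside 10.5% of all genes lower and 9.08% higher. Cox4i1 moved by -2.25 ± 0.57 (edgeR adjusted p = 0.0254), and mt-Nd4l by 2.25 ± 0.76 (edgeR adjusted p = 0.0487). Time and study code cannot be told apart, and 0 members passed without WT mouse 1 or 3 or treated mouse 10 of the 12-week mice, or without WT mouse 1 or treated mouse 9 of the 34-week mice.

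Genes that serve the chain were counted from lists of 9 kinds. Of 18 electron carriers and their suppliers, 11 were lower in Lipa-/- than WT mice at 12 weeks and 16 at 34 weeks, with 0 higher, beside 16.3% and 23.5% of all genes lower. Cyc1, cytochrome c1 of complex III, is a subunit that the symbols taken here leave out of the complex III and core counts. It fell by 1.14 and 1.86 (edgeR adjusted p = 0.00517 and 8.01e-05). Coq8a, a kinase-like protein of ubiquinone synthesis, fell by 1.70 and 2.69 (edgeR adjusted p = 0.000333 and 4.14e-06), and Etfdh, which brings electrons of fatty acid oxidation to ubiquinone, by 1.60 at 12 weeks (edgeR adjusted p = 4.87e-05). Prodh, proline dehydrogenase, fell by 2.37 at 34 weeks (edgeR adjusted p = 3.4e-05). In treated against untreated mice at 34 weeks 14 of the 18 were higher, beside 19.6% of all genes. Among them were Coq8a, higher by 2.81, and Prodh, higher by 2.60 (edgeR adjusted p = 4.53e-06 and 2.17e-05).

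Assembly factors were mostly lower at 34 weeks. At 34 weeks 8 of 9 further factors of complex I, 2 of 4 of complex II, 4 of 6 of complex III, 16 of 22 of complex IV and 3 of 4 of complex V were lower in Lipa-/- mice, beside 23.5% of all genes. At 12 weeks 5, 0, 3, 5 and 1 were lower, which for complexes II, IV and V was 0%, 22.7% and 25% beside 16.3% of all genes, and 0 were higher at either time. Ecsit, a factor of complex I, fell by 1.07 and 1.62 (edgeR adjusted p = 0.000391 and 6.37e-06), and Tmem70, a factor of complex V, by 0.93 and 1.54 (edgeR adjusted p = 0.00258 and 2.58e-05). Uqcc1, a factor of complex III, fell by 0.88 and 1.39 (edgeR adjusted p = 0.00306 and 5.18e-05). Sco2, which delivers copper to complex IV, fell by 1.81 and 2.81 (edgeR adjusted p = 0.00218 and 4.9e-05). Taco1, which helps translate the mt-Co1 mRNA, fell by 1.64 and 2.21 (edgeR adjusted p = 6.43e-05 and 2.93e-06).

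Of 30 genes for mtDNA maintenance, transcription and RNA stability, 14 were lower at 12 weeks and 17 at 34 weeks, with 0 higher (46.7% and 56.7%, beside 16.3% and 23.5% of all genes). Tefm, the elongation factor of mitochondrial transcription, fell by 1.67 at 34 weeks (edgeR adjusted p = 0.00812), and Mgme1, a nuclease of mtDNA replication, by 1.02 at 12 weeks (edgeR adjusted p = 0.00863). In 12-week treated against WT mice 10 of the 30 were higher and 6 lower, beside 19.4% of all genes higher and 17.5% lower. The share lower was near that of all genes. Tefm was higher by 1.96 and Top1mt, the mitochondrial topoisomerase, lower by 1.60 (edgeR adjusted p = 0.00771 and 0.00532). Of 19 genes for the outer membrane and mitochondrial mass, 9 were lower and 1 higher in Lipa-/- than WT mice at 12 weeks, and 14 lower and 1 higher at 34 weeks. Of all genes 16.3% were lower and 22.9% higher at 12 weeks, and 23.5% lower and 23.8% higher at 34 weeks. The chaperonin Hspd1 fell by 1.35 and 1.43 (edgeR adjusted p = 0.000637 and 0.000292), and the channel gene Vdac2 rose by 0.76 and 0.65 (edgeR adjusted p = 0.00401 and 0.00915).

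Of 10 nuclear regulators of respiratory genes, 3 were lower at 12 weeks, and 4 were lower and 2 higher at 34 weeks, few genes beside 16.3% of all genes lower at 12 weeks and 23.5% lower and 23.8% higher at 34 weeks. Their medians were 0.08 and -0.36. Ppara, the fatty acid-sensing receptor, fell by 1.42 and 1.98 (edgeR adjusted p = 0.00371 and 0.000202), and Gabpa, the ETS factor of many respiratory promoters, by 0.75 and 0.84 (edgeR adjusted p = 0.00637 and 0.00231). Pprc1, a coactivator, and Perm1, a regulator known from muscle, rose by 1.10 and 3.60 at 34 weeks (edgeR adjusted p = 0.017 and 0.00744). In treated against untreated mice at 34 weeks Ppara was higher by 2.04 and Gabpa by 0.86 (edgeR adjusted p = 0.000204 and 0.00218). In treated against WT mice at 34 weeks 0 genes of all 9 lists passed in edgeR.

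Because nuclear members moved together, their promoters were read for motifs of known regulators. Of 90 nuclear members looked up, 75 had an entry in the RefSeq promoter table of GRCm38.p6, and the 250 bases before each start were searched on both strands. The NRF1 motif, the capitals in the lines that follow, stood in 5 of the 75 (6.67%) and in 237 of 27025 genes (0.877%). The ETS motif CCGGAAGT stood in 4% of members and 3.23% of genes, the YY1 motif AAGATGGC in 1.33% and 1.83%, the ERR motif TCAAGGTCA in 1.33% and 0.422%, and the hypoxia response core ACGTG in 20% and 18.5%. The 5 members with the NRF1 motif are shown in lines of 50 bases, with the motif in capitals, 5′ to 3′ on the strand of the gene.
Atp5g2, chr15:102671060-102671109, minus strand: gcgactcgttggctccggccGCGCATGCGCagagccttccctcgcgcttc
Atp5k, chr5:108434420-108434469, minus strand: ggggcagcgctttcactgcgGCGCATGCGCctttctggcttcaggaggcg
Cox6a1, chr5:115349091-115349140, minus strand: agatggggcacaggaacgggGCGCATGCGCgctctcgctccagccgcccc
Ndufa11, chr17:56717682-56717731, plus strand: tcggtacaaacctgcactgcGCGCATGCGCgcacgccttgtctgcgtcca
Ndufaf4, chr4:24897950-24897999, plus strand: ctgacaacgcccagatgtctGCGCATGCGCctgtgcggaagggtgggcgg
A match is a run of letters and not a shown binding site, and its absence from these windows says nothing of the factor. NRF1 is a known regulator of respiratory genes, and its own mRNA, Nrf1, looked up after the motif was counted, gave 0.32 and 0.36 in Lipa-/- against WT mice and did not pass (edgeR adjusted p = 0.196 and 0.133).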

How the data were processed

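Liver RNA of 18 mice was sequenced by the study as polyA-selected paired libraries. The authors made estimated counts and TPM per gene with Salmon 1.9.0 on the GRCm39 cDNA of Ensembl release 110 and tximport 1.28.0, and deposited them with effective lengths; 80.6% of the estimated count values are whole. A deposited table of the authors' own comparisons (log2 fold changes and p-values from DESeq2 1.40.1) was not used, and 0 other per-sample columns were set aside.

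Estimated counts were rounded, genes with more than 100 reads over the 18 mice were kept, and edgeR 4.0.16 (TMM scaling, quasi-likelihood test, R 4.3.3) was fitted to 6 groups of 3 mice, with Benjamini-Hochberg adjustment over 14533 genes and a threshold of 0.05. There were 6 comparisons and 2 interactions. An exact permutation test of 3 against 3 mice cannot go below p = 0.1, so it was not used.

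Members, core list, 9 companion lists and 10 marker lists were chosen with earlier results of these data known. The genes to name were the mt-encoded and core genes, isoform pairs, the 3 members per direction furthest from WT at a mean of at least 1 CPM, and up to 2 genes per companion list and direction. The text prints part of these, chosen after their values were seen, and Nrf1, Atp5k and Ndufa11 fall outside the rule. Alternatives were DESeq2 1.42.0, limma 3.58.1 with voom, on log2(TPM + 1) or with the mouse number as a replicate block, other scalings, no read minimum, stricter thresholds and each mouse left out. Level scores used log2(CPM + 0.5). Nuclear copies were searched at 95% identity over at least 200 bases. Removal of a length and GC trend (98.9% of genes tested had both) and addition of copies' reads were chosen after seeing the data. The fits were tested on simulated data for Lipa-/- against WT at 12 weeks, where a larger share of DESeq2's than of edgeR's calls fell on unchanged genes. Mouse numbers are not shared between groups of a time point and do not pair mice.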

Additional observations from a re-analysis of the deposited data

Results flagged for a closer look

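Between the time points, 50 members had a tested difference in their distance of treated from WT mice (an interaction in edgeR, 34 weeks minus 12 weeks on the log2 scale), 49 nuclear members toward lower and mt-Nd4l, at 2.25, toward higher values. In complexes I and II the change was -1.58 for Ndufs8, -1.9 for Ndufv2 and -2.01 for Sdhd. In complex III it was -1.37 for Uqcrc2 and -1.15 for Uqcrfs1. In complex IV it was -2.25 for Cox4i1, -1.13 for Cox5b, -1.88 for Cox6b1, -2.98 for Cox7a1, -1.66 for Cox7a2, -2.37 for Cox7b, -1.16 for Cox8a and -2.1 for Ndufa4. With the length and GC trend removed, 22 nuclear members were lower and 2 members higher. No member passed in a fit of these groups alone, at an adjusted p under 0.01, or without WT mouse 1, WT mouse 3 or treated mouse 10 of 12 weeks, or WT mouse 1 or treated mouse 9 of 34 weeks. Time and study code cannot be told apart.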

How the results depend on the processing

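Counts of members passed depended on scaling and on single mice, and the causes were not tested. Shares of all genes under each setting are not set beside these counts. Under total count scaling the nuclear counts were 9 and 31 for Lipa-/- against WT at 12 and 34 weeks, 47 and 18 for treated against Lipa-/-, and 32 for the change of treated from WT with time; mt-encoded counts were 0 and 0, 11 for treated against WT at 12 weeks, and 8, all lower, for treated against Lipa-/-. On log2(TPM + 1) the nuclear counts were 7, of which 6 higher, 24, 34, 41 and 14 for Lipa-/- against WT at both times, treated against WT at 12 weeks and treated against Lipa-/- at both times, and 18 for the change with time; mt-encoded counts were 0, 0, 11 and 10, the last all lower. With the length and GC trend removed nuclear counts were 47, 32 for treated against WT, 69 for treated against Lipa-/- at 34 weeks and 24 for the change with time, and mt-encoded counts 0, 0, 12 and 9, the last all lower. At an adjusted p under 0.01 nuclear counts were 9, 49, 28 and 24 and mt-encoded counts 0, 0 and 0, with 0 for the change with time. With a log2 fold change over 1 also required, 6 nuclear members passed at 12 weeks and 28 for treated against Lipa-/- at 34 weeks. mt-encoded counts for Lipa-/- against WT were 6 and 6 in DESeq2, which made more false calls than edgeR on simulated data, 1 and 0 with upper quartile scaling, 1 and 1 without a read minimum, 6 at 12 weeks in limma-voom, 1 at 12 weeks with length offsets and 1 at 34 weeks in a fit of the compared groups. For treated mice they were 11 in DESeq2 and limma-voom and 4 without a read minimum against WT at 12 weeks, 2 in DESeq2 and limma-voom against Lipa-/- at 12 weeks, and 1 in DESeq2 and in a fit of the compared groups at 34 weeks; that fit gave 0 for the change with time. With the replicate block (limma-voom, correlation of same-numbered mice -0.061) mt-encoded counts were 5 and 1 for Lipa-/- against WT and 11 and 2 for treated against WT and Lipa-/- at 12 weeks, and it moved no other count by over 1.5 times.

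Leaving out each mouse gave 11 to 18 nuclear and 0 to 8 mt-encoded members for Lipa-/- against WT at 12 weeks, 46 to 84 and 0 to 2 at 34 weeks, 9 to 64 and 0 to 10 for treated against WT at 12 weeks, 76 to 82 and 1 to 3 for treated against Lipa-/- at 12 weeks, 25 to 59 and 0 to 0 at 34 weeks, and 0 to 62 for the change with time. The change of Lipa-/- with time and treated against WT at 34 weeks gave 0 members throughout, and differences of the mt-encoded to nuclear ratio moved by less than 1 SD.

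Of 7532 values for 51 genes under 36 settings, 6559 kept direction and side of the threshold, 447 fell short of it, 168 passed newly, 328 moved and 30 turned. In Lipa-/- against WT these were Atp5b (0.23) in TPM at 12 weeks, mt-Co3 (0.01) without the trend at 34 weeks, and Cox7a2l under total count scaling (0.54) and in TPM (0.59). In treated against WT at 12 weeks without the trend they were mt-Co3 (-1.25), mt-Nd3 (0) and Cox7a2 (-0.03). In treated against Lipa-/- at 12 weeks they were mt-Atp6 (-1 in TPM, -1.84 without the trend), mt-Co3 (-1.15) and mt-Nd3 (-0.16) without the trend, and Atp5g2 with copies (0.67). Ndufs3 (-0.12, -0.48), Ndufs7 (-0.14, -0.5), Sdha (-0.09, -0.48), Sdhc (-0.08, -0.19) and Atp5a1 (-0.02, -0.22) turned under total count scaling and in TPM. Ndufs1 (-0.01), Uqcrc1 (-0.71), Cox5b (-0.03), Cox6a1 (-0.06), Cox7a2l (-0.73), Cox8a (-0.08) and Atp5g1 (-0.06) turned in TPM alone, as did Cox7a2l at 34 weeks (-0.54). Members with few reads, such as Cox4i2, are limited by counting error.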

Other observations

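Atpif1, the inhibitor of the ATP synthase, stood at 65.9 ± 32.1 CPM (SD, n = 3) in treated mice at 12 weeks, above WT by 1.85 (edgeR adjusted p = 0.00839), while treated mice at 34 weeks stood at 18.9 ± 10.2 CPM. Human LIPA reads were listed in WT mouse 2 of 34 weeks at 0.906 CPM and in WT mouse 1 at 0.059 CPM, in animals labelled as untreated.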
